A study of Rattus norvegicus with 6 samples.

Results

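The let-7 guide strands and their close relative miR-98-5p were followed in plasma exosomes of rats, as the rows of the count table that carry the 9 mature names rno-let-7a-5p, rno-let-7b-5p, rno-let-7c-5p, rno-let-7d-5p, rno-let-7e-5p, rno-let-7f-5p, rno-let-7g-5p, rno-let-7i-5p and rno-miR-98-5p, written without the rat prefix from here on. They are 9 of the 763 mature miRNAs listed, chosen by name, and all 9 passed the filter on low counts, which left 404 miRNAs to test. Small RNA libraries came from 3 samples of each group. RIPC-EXO exosomes were taken from male Sprague-Dawley rats, 7 to 8 weeks old, 48 h after remote ischemic pre-conditioning (RIPC), in which rubber bands closed both hind limbs for 4 cycles of 5 minutes of ischemia and 5 minutes of reperfusion under anesthesia. Control-EXO exosomes were taken from control rats of the same strain, sex and age without RIPC, and blood of both groups was drawn under anesthesia. The pellet of plasma spun at high speed was taken as exosomes, so no cell of origin is fixed by the preparation, and vesicles from blood cells, vessel wall and organs are read together. The labels do not say whether a library is 1 rat or a pool, so p-values measure the spread between these samples only.

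MicroRNAs are short RNAs that guide Argonaute proteins to matching sites in transcripts, mostly through the seed near the 5′ end, and lower the output of those transcripts. The let-7 family was found as a timer of development in worms and is conserved in animals. Its members are scarce in embryonic cells, where the LIN28 proteins block maturation of their precursors, and plentiful in differentiated tissue, blood and blood vessels. Known targets include HMGA2, RAS genes and MYC, so the family is best known as a brake on growth. The comparison of both groups asks which miRNAs of circulating exosomes differ at the late phase of RIPC.

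All 9 guide strands had a mature sequence in RefSeq (build GRCr8), matched by name, and each was 22 bases long. The sequences are shown because the members are told apart by few bases outside the seed, which bears on how reads could be assigned to them. They are written 5′ to 3′ with the seed, bases 2 to 8, in capitals.
let-7a-5p: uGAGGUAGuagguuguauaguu
let-7b-5p: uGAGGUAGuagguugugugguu
let-7c-5p: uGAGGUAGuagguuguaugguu
let-7d-5p: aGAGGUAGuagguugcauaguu
let-7e-5p: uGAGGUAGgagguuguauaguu
let-7f-5p: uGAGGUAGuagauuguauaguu
let-7g-5p: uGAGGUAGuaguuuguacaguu
let-7i-5p: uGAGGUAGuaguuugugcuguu
miR-98-5p: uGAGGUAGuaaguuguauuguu

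The seed was identical in all 9, and no other row of the table with a RefSeq sequence (685 rows) carried it. Only 8 of the 22 positions varied (1, 9, 11, 12, 16, 17, 18 and 19). Relative to let-7a-5p, giving its base first and numbering bases from 1 at the 5′ end, let-7c-5p carried A19G, let-7e-5p U9G and let-7f-5p G12A. The others were further away: A17G and A19G in let-7b-5p, U1A and U16C in let-7d-5p, G12U and U18C in let-7g-5p, and G11A and A19U in miR-98-5p. let-7i-5p was the most distant, with G12U, A17G, U18C and A19U. Of the 36 pairs of members, 4 differed at 1 base, which linked let-7a, let-7b, let-7c, let-7e and let-7f in a chain. Reads with a sequencing error or a modified base can move between such names, and the mismatch rule of the counting is not given in the sources used here. Values of single members are uncertain to that extent, whereas the family total is not affected by exchange among members. Reads counted under several names would raise the total, and whether any were is not known.

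The 9 mature strands come from 12 genes in the RefSeq gene table of GRCr8, since let-7a, let-7c and let-7f each have a pair of genes. The table places let-7a-1, let-7f-1 and let-7d next to each other, let-7c-2 next to let-7b, and let-7f-2 next to miR-98. let-7a-2 lies near miR-100 and miR-125b-1, let-7c-1 near miR-99a and miR-125b-2, and let-7e near miR-99b and miR-125a, while let-7g and let-7i had no miRNA gene within 100000 bases. Mature counts cannot say which gene of a pair was read.

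The libraries held 5484209 to 7531737 counts, and no member had fewer than 336 counts in any library. Control-EXO replicate 3 stood apart from the other control libraries: on the first principal component of the tested miRNAs it lay at 11.8, near the RIPC-EXO libraries (2.16 to 11.5), with Control-EXO replicates 1 and 2 at -20.6 and -14.8. For 8 of the 9 members its level lay nearer to RIPC-EXO than to the remaining controls, so results are given with and without it. Among marker miRNAs, those of red cells (4 of 5 listed names were in the table, all with counts) summed to 69273 to 198074 CPM (counts scaled to a common library size) in Control-EXO and 44536 to 74959 CPM in RIPC-EXO. That sum was mostly miR-486 (195795 of 198074 CPM in Control-EXO replicate 1), with a log2 fold change of -1.07, whereas miR-144-5p, miR-144-3p and miR-451-5p were at 1.63, 1.07 and 0.37. For both miR-144 strands each RIPC-EXO library was above each control, so the red cell markers did not share a direction. Those of leukocytes and platelets (4 of 4) summed to 3553 to 21385 CPM in Control-EXO and 11448 to 26859 CPM in RIPC-EXO, and the lowest values were Control-EXO replicates 1 and 2. That sum was mostly miR-142-5p (18749 CPM in Control-EXO replicate 3 and 24668 CPM in RIPC-EXO replicate 2), at 0.86 on the log2 scale, whereas miR-142-3p, miR-150-5p and miR-223-3p were at 0.97, 0.03 and -0.36. Endothelial miR-126a (2 of 2 arms) summed to 4722 to 16771 and 20585 to 30331 CPM. That sum was mostly miR-126a-3p (4631 of 4722 CPM in Control-EXO replicate 1), at 1.34 on the log2 scale, whereas miR-126a-5p was at 0.45. Liver markers (2 of 2) summed to 79580 to 108013 and 75197 to 80646 CPM, with miR-122-5p at -0.65 and miR-192-5p at -0.01. Striated muscle markers (6 of 6) summed to 2149 to 9815 and 1801 to 5949 CPM. Their log2 fold changes ran from -0.55 (miR-1-3p) to 1.86 (miR-208a-3p, at most 5.94 CPM). The part of these markers in the levels of the family was not tested, and more vesicles of a type cannot be told apart from more miRNA per vesicle.

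Together the family held a larger part of the miRNA counts in RIPC-EXO. The 9 rows summed to 3.17%, 2.40% and 6.08% of all counts in Control-EXO replicates 1, 2 and 3, and to 7.72%, 8.09% and 11.6% in RIPC-EXO replicates 1, 2 and 3. The groups did not overlap, but the highest control and the lowest RIPC-EXO library were close. Wilson 95% intervals of these shares, which cover counting error only because PCR reads are not independent molecules, were 6.07% to 6.10% for Control-EXO replicate 3 and 7.70% to 7.74% for RIPC-EXO replicate 1. After scaling by TMM, which sets libraries to a common level through the bulk of their miRNAs, that gap nearly closed, at 65168 CPM against 66811 CPM. The family total was 41920 ± 21943 CPM in Control-EXO and 86913 ± 23538 CPM in RIPC-EXO (SD, n = 3 each), a ratio of 2.07 or 1.05 on the log2 scale. Without Control-EXO replicate 3 the mean of the remaining controls was 30297 CPM and the ratio 2.87. No p is given for this sum, because the members were chosen with earlier results of these data known.

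**Figure D1:**
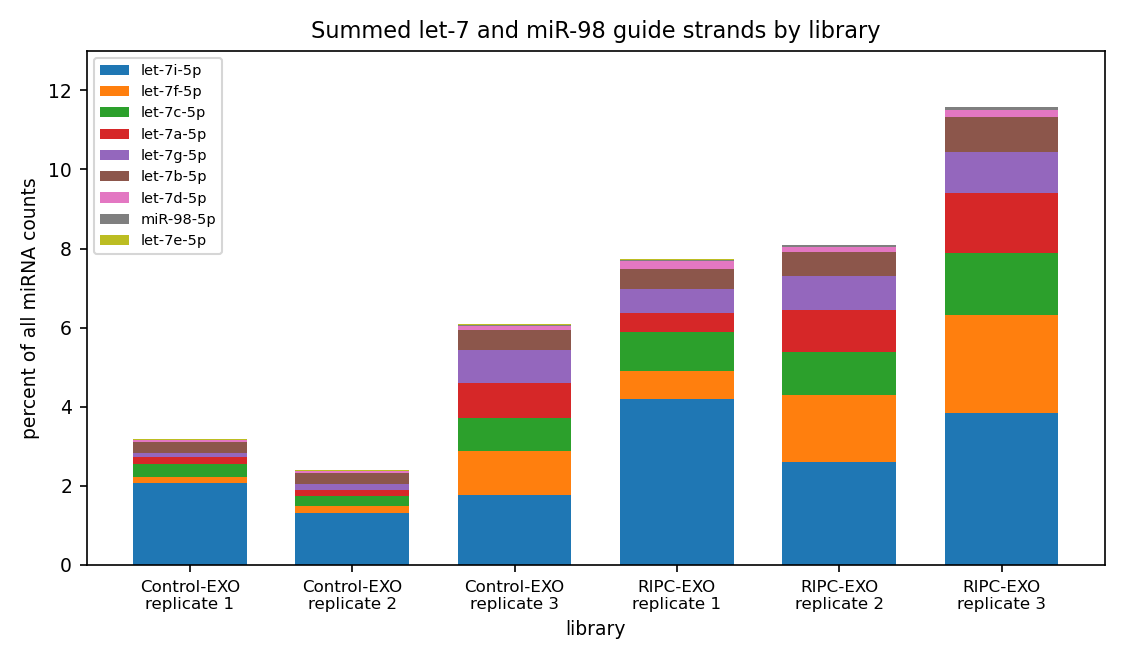
Percent of all miRNA counts (vertical axis) taken by the 9 guide strands in each of the 6 libraries (horizontal axis), stacked by member. The total lies between 2.40% and 6.08% in Control-EXO and between 7.72% and 11.6% in RIPC-EXO, and Control-EXO replicate 3 is well above both other controls.

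The separation of the groups in the total depended on let-7i-5p. Without it, the remaining 8 members summed to 13688, 9856 and 46224 CPM in Control-EXO and to 30438, 55130 and 75348 CPM in RIPC-EXO. Control-EXO replicate 3 was then above RIPC-EXO replicate 1, and the groups overlapped. The ratio of means was 2.31 with all libraries and 4.56 without Control-EXO replicate 3.

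Every member had a higher mean in RIPC-EXO, and none passed the test. The fitted log2 fold changes (RIPC-EXO over Control-EXO) were above 0 for 9 of 9 members, against 48.8% of all 404 tested miRNAs, with a median of 1.07 (range 0.57 to 1.60) against a median of -0.05 over all tested. The fold change exceeded 2 for 5 of 9, where 10.1% of the tested miRNAs did so upward. The study named a fold change above 2 and p below 0.05 as its criterion without stating whether p was adjusted, and here p before adjustment was used. The study followed up by qRT-PCR a part of the miRNAs that met its criterion with RIPC-EXO higher. Its list of qRT-PCR sequences includes let-7c-5p, let-7f-5p and miR-98-5p. Here the criterion was met by 0 of 9 members in the quasi-likelihood test of edgeR, where 1.98% of tested miRNAs met it with RIPC-EXO higher. Without the fold limit the count was also 0 of 9, where 9.41% of tested miRNAs passed in either direction. DESeq2, limma-voom and the exact test of edgeR called 4, 5 and 1 of the 9 by the same criterion, where 4.03%, 6.68% and 2.72% of all miRNAs they tested were called higher. The adjusted p of each member was 0.37 or more in those tests. The adjusted p of the members lay between 0.47 and 0.51 in edgeR's quasi-likelihood test, and 0 of 404 tested miRNAs had an adjusted p under 0.05. Groups that did not overlap, with RIPC-EXO higher, were seen for 2 of 9 members and for 4.95% of all tested, and groups apart with RIPC-EXO lower for 0 of 9 and 7.92%. The scaling mattered for the background: with library size only, the median over all tested was 0.10 with 18 calls higher and 15 lower in RIPC-EXO, against 8 and 30 with TMM. In that scaling 5 of 9 members met the criterion, where 4.46% of all tested were called higher, and the members stayed above 0.

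**Figure D2:**
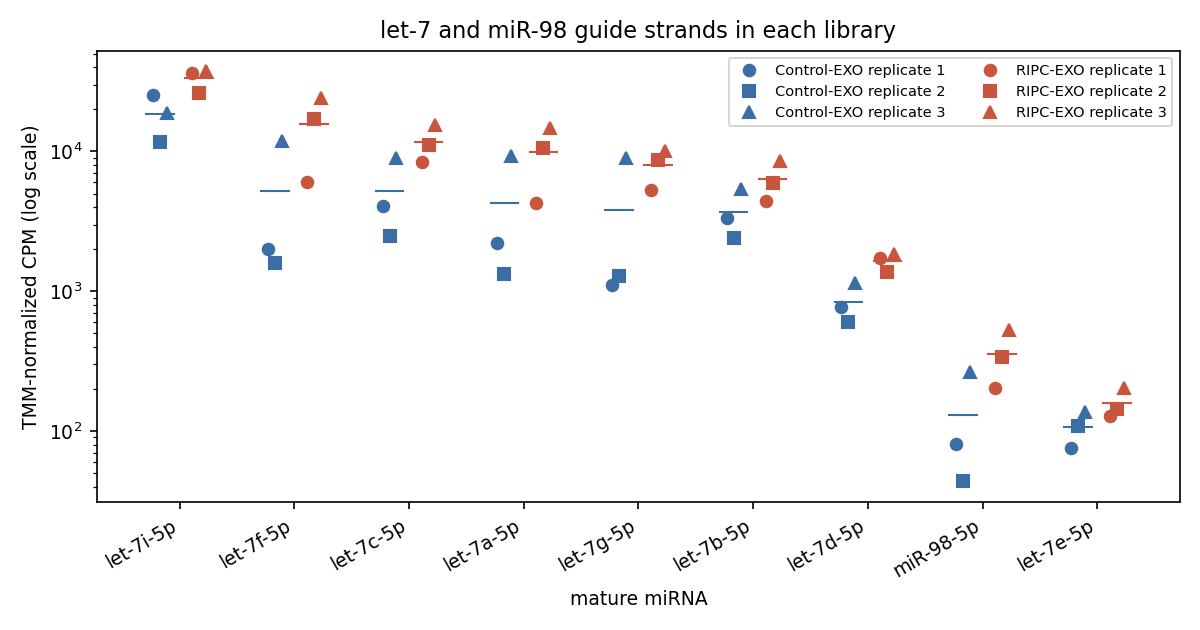
TMM-normalized CPM on a log axis for each guide strand, ordered by mean in RIPC-EXO; each point is 1 library and the short line is the group mean of 3 libraries. The blue triangles (Control-EXO replicate 3) lie above the other controls for every member but let-7i-5p, and let-7d-5p and let-7i-5p are the only members whose groups do not overlap.

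let-7i-5p was the most abundant member in all 6 libraries. It had 25335, 11714 and 18943 CPM in Control-EXO replicates 1, 2 and 3 and 36374, 25992 and 37458 CPM in RIPC-EXO. Each RIPC-EXO library was above each control, although RIPC-EXO replicate 2 lay close to Control-EXO replicate 1. The log2 fold change was 0.83 (standard error 0.42, 95% interval -0.12 to 1.78), and edgeR gave it an adjusted p of 0.47 (0.079 unadjusted). It was also the member that depended least on Control-EXO replicate 3, with 0.86 without it. By count it ranked between 15 and 16 of all miRNAs in Control-EXO and between 7 and 10 in RIPC-EXO.

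let-7d-5p, the member that carries U1A, was the other member without overlap. Its levels were 768, 604 and 1152 CPM in Control-EXO and 1716, 1377 and 1836 CPM in RIPC-EXO. The log2 fold change was 0.97 (standard error 0.44, 95% interval -0.02 to 1.95), and edgeR gave it an adjusted p of 0.47 (0.053 unadjusted). With 3 libraries against 3, no exact permutation test on single members (two-sided) can go below p = 0.1.

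let-7f-5p and miR-98-5p, the products of neighbouring genes through let-7f-2, had the largest fold changes of the family. let-7f-5p had 2020, 1599 and 11945 CPM in Control-EXO and 6046, 17052 and 23970 CPM in RIPC-EXO, so that Control-EXO replicate 3 was well above RIPC-EXO replicate 1. On the log2 scale the fitted difference was 1.60 (standard error 0.82, 95% interval -0.25 to 3.44). miR-98-5p was rare, at 81.4, 43.7 and 264 CPM in Control-EXO and 203, 337 and 531 CPM in RIPC-EXO. The fitted difference was 1.46 (standard error 0.69, 95% interval -0.09 to 3.01). Both overlapped through the same pair of libraries, Control-EXO replicate 3 and RIPC-EXO replicate 1.

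let-7a-5p and let-7c-5p, which differ at base 19, were at similar levels in some libraries and not in others. let-7a-5p had 2217, 1336 and 9320 CPM in Control-EXO and 4251, 10566 and 14824 CPM in RIPC-EXO. let-7c-5p had 4080, 2468 and 9016 CPM in Control-EXO and 8446, 11043 and 15356 CPM in RIPC-EXO. The log2 fold changes were close, 1.2 (standard error 0.75) for let-7a-5p and 1.16 (standard error 0.54) for let-7c-5p. let-7g-5p had 1114, 1278 and 8999.5 CPM in Control-EXO and 5256, 8623 and 10059 CPM in RIPC-EXO, and its fitted log2 difference was 1.07 (standard error 0.78). In let-7g-5p Control-EXO replicate 3 exceeded both RIPC-EXO replicates 1 and 2, and it was the only member where that was so.

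The smallest differences belonged to let-7b-5p and let-7e-5p. let-7b-5p had 3332, 2420 and 5392 CPM in Control-EXO and 4390, 5987 and 8569 CPM in RIPC-EXO, which gave 0.77 on the log2 scale (standard error 0.47). let-7e-5p, the rarest member in RIPC-EXO, had 75.3, 109 and 136 CPM in Control-EXO and 129, 144 and 203 CPM in RIPC-EXO, which gave 0.57 on the log2 scale (standard error 0.43). In both, as in 7 of the 9 members, Control-EXO replicate 3 was above RIPC-EXO replicate 1. RIPC-EXO replicate 3 was the highest library for 9 of 9.

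Leaving out Control-EXO replicate 3 changed the calls. With the remaining 5 libraries, 7 of 9 members had a fold change over 2 and an adjusted p under 0.05 in edgeR's quasi-likelihood test, where 17.3% of 422 tested miRNAs passed that adjusted p upward and 31.3% in either direction. The criterion before adjustment was met upward by the same number, 7 of 9, and by 23.7% of all tested. At p below 0.05 before adjustment it was 8 of 9, and 46% of all tested in either direction. The largest were let-7f-5p at 3.13, let-7g-5p at 2.75, miR-98-5p at 2.53 and let-7a-5p at 2.49 on the log2 scale (adjusted p = 0.0038, 0.0031, 0.0069 and 0.0069 from that edgeR fit). let-7c-5p followed at 1.84, let-7d-5p at 1.27 and let-7b-5p at 1.15, the last with an adjusted p of 0.0499 in that edgeR fit. let-7i-5p at 0.86 and let-7e-5p at 0.80 did not pass (adjusted p = 0.11 and 0.16, edgeR). Every RIPC-EXO library was above both of the remaining controls for 9 of 9 members, as for 30.8% of all tested. No reason to drop this library is given in the labels, and the fit without it rests on 2 controls.

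**Figure D3:**
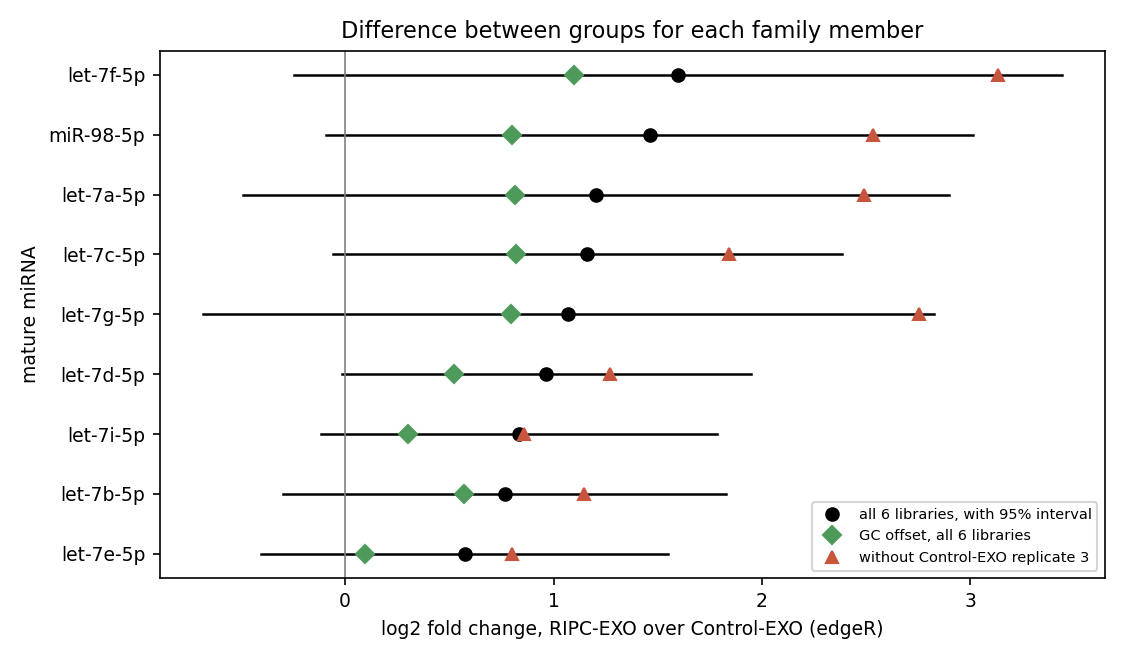
log2 fold change of RIPC-EXO over Control-EXO (horizontal axis) for each member, with all 6 libraries (black, line for the 95% interval), with an offset for GC content (green) and without Control-EXO replicate 3 (red). Every interval includes 0, the red points reach 3.13 for let-7f-5p, and the green points are nearer to 0 than the black ones in every row.

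Within the family, the mix of members split the libraries in another way than the groups. The share of family counts taken by let-7i-5p was 64.9%, 54.3% and 29.1% in Control-EXO and 54.4%, 32.04% and 33.2% in RIPC-EXO. RIPC-EXO replicate 1 thus lay with Control-EXO replicates 1 and 2, and Control-EXO replicate 3 with RIPC-EXO replicates 2 and 3. let-7f-5p showed the reverse, with 5.18%, 7.41% and 18.3% in Control-EXO and 9.05%, 21.0% and 21.2% in RIPC-EXO. let-7a-5p had 5.68%, 6.19% and 14.3% in Control-EXO and 6.36%, 13.03% and 13.1% in RIPC-EXO. For these 3 members the groups overlapped, and with all 6 libraries the difference between group means was smaller than the SD within either group. The difference in share (RIPC-EXO minus Control-EXO) depended on single libraries. For let-7i-5p it was -9.54 percentage points, -19.7 without Control-EXO replicate 3, -16.8 without RIPC-EXO replicate 1 and -1.79 without Control-EXO replicate 1. For let-7f-5p it was 6.80, and 10.8 without either Control-EXO replicate 3 or RIPC-EXO replicate 1. For let-7a-5p it was 2.12, with 4.90 and 4.36 without those libraries and 0.595 without Control-EXO replicate 1.

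The count ratio of let-7c-5p to let-7a-5p, which differ by A19G, showed the same split. It was 1.84, 1.85 and 0.97 in Control-EXO and 1.99, 1.05 and 1.04 in RIPC-EXO. Since both strands have the same length and are read in the same library, this ratio does not depend on scaling. The ratio of let-7e-5p to let-7a-5p (U9G) split the libraries in the same way, with 0.0340, 0.0812 and 0.0146 in Control-EXO and 0.0303, 0.0137 and 0.0137 in RIPC-EXO. The ratio of let-7f-5p to let-7a-5p (G12A), in contrast, separated the groups, with 0.911, 1.2 and 1.28 in Control-EXO and 1.42, 1.61 and 1.62 in RIPC-EXO. The ratio of let-7c-5p to let-7b-5p (G17A, with the base of let-7b-5p first) also did, with 1.22, 1.02 and 1.67 against 1.92, 1.84 and 1.79. In both of these ratios the strand with the G-to-A difference was relatively higher in RIPC-EXO. The other 2 of these 4 ratios overlapped between groups, and no test was made. With the 5 members linked by 1-base differences summed as a single item, the level was 11724, 7931 and 35809 CPM in Control-EXO and 23263, 44793 and 62923 CPM in RIPC-EXO, a ratio of means of 2.36 with overlapping groups, and of 4.44 without Control-EXO replicate 3.

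**Figure D4:**
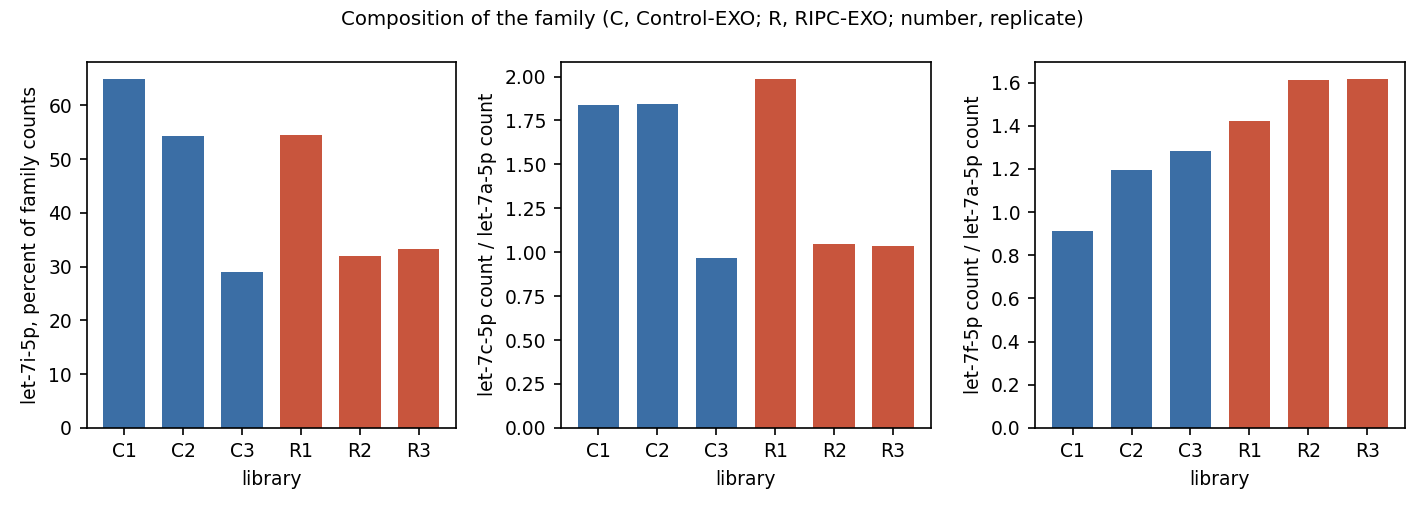
Share of family counts taken by let-7i-5p, and count ratios of let-7c-5p and let-7f-5p to let-7a-5p (vertical axes from 0), in Control-EXO (C1 to C3) and RIPC-EXO (R1 to R3) libraries. In the left and middle panels C1, C2 and R1 are high (54.3% or more, 1.84 or more) and C3, R2 and R3 are low, whereas in the right panel each R library is above each C library.

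The order of abundance was stable at both ends. let-7i-5p had rank 1 and let-7d-5p rank 7 in 6 of 6 libraries, and miR-98-5p and let-7e-5p shared the last places. In Control-EXO the next in order (let-7c-5p, let-7f-5p, let-7b-5p, let-7a-5p and let-7g-5p, with mean shares from 11.9% to 7.53%) overlapped in their ranges, and so did let-7e-5p and miR-98-5p. In RIPC-EXO the next in order were let-7f-5p, let-7c-5p, let-7a-5p and let-7g-5p (17.1% to 9.14%), again with overlap between neighbours. let-7b-5p came after these at 7.18 ± 0.54%, below its 9.34 ± 1.63% in Control-EXO (SD, n = 3 each), and its groups were apart. Its difference of -2.16 percentage points was -1.22 without Control-EXO replicate 2. let-7e-5p was last in RIPC-EXO, with shares of 0.193%, 0.178% and 0.180% against 0.193%, 0.503% and 0.209% in Control-EXO. Its difference of -0.12 percentage points was -0.017 without Control-EXO replicate 2.

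The base content of the members moved with their fold changes. G and C made up 31.8% of let-7f-5p and miR-98-5p, 36.4% of let-7a-5p and let-7g-5p, 40.9% of let-7c-5p, let-7d-5p, let-7e-5p and let-7i-5p, and 45.5% of let-7b-5p. Over the 9 members Pearson's r between GC percent and log2 fold change was -0.853. The same slope ran through the whole table: over the 363 tested miRNAs with a RefSeq sequence (89.9%), r was -0.605 and Spearman's rho -0.617. These are correlations across miRNAs that share the same 6 libraries, and no p is given. The median log2 fold change was 0.79 for the 32 miRNAs with up to 35% GC, 0.45 for the 35 above 35% and up to 40%, and 0.31 for the 54 above 40% and up to 45%. It was -1.02 for the 53 above 60%. The members, with a median GC of 40.9% against 47.8% for all tested, lay in the part of the table where most miRNAs were higher in RIPC-EXO. The mean GC of the counted reads was 49.9%, 49.0% and 46.4% in Control-EXO replicates 1, 2 and 3 and 47.0%, 46.4% and 46.2% in RIPC-EXO.

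**Figure D5:**
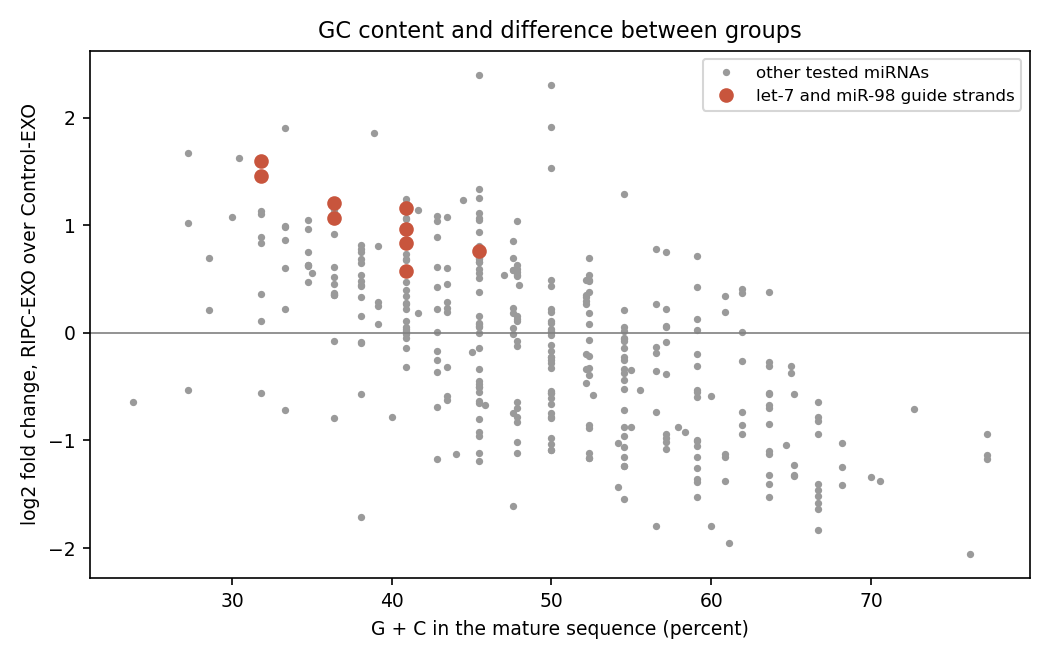
GC percent of the mature sequence (horizontal axis) against the log2 fold change of RIPC-EXO over Control-EXO (vertical axis) for 363 tested miRNAs (grey) and the 9 family members (red). The points fall from left to right (Spearman's rho -0.617), and the members lie between 31.8% and 45.5% GC and between 0.57 and 1.60 on the log2 scale, in the upper part of the cloud.

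When a linear trend on GC was taken out of each library, the members stayed above 0 but came nearer to it. The median log2 fold change of the 9 was 0.79, against -0.07 over the 363 miRNAs in that fit. let-7f-5p was then at 1.10, let-7c-5p at 0.82, let-7a-5p at 0.82, miR-98-5p at 0.80, let-7g-5p at 0.79, let-7b-5p at 0.57, let-7d-5p at 0.52, let-7i-5p at 0.30 and let-7e-5p at 0.09. In that fit 0 of 9 members met the criterion, where 1.38% of 363 miRNAs were called higher (adjusted p of members from 0.59 to 0.91, edgeR). With the GC trend taken out and Control-EXO replicate 3 left out together, a choice made after the data were seen, the median was 0.97 and 4 members met the criterion, where 12.1% of 380 miRNAs were called higher. Of these 4, let-7g-5p alone had an adjusted p under 0.05 (log2 fold change 1.59, adjusted p = 0.031, edgeR), where 7.63% of the 380 passed in either direction, and let-7i-5p and let-7e-5p were at 0.07 and 0.0006. The mean GC of counted reads was higher in Control-EXO replicates 1 and 2 than in RIPC-EXO, while Control-EXO replicate 3 lay within the RIPC-EXO range. The part of GC content in the family's difference was not tested beyond these values.

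The let-7 passenger strands, the opposite arms of the same stem-loops, did not pass the test, and their difference from the guide strands was not tested. Of 12 rows, 11 were tested, 10 had a log2 fold change above 0 and 1 below, and 0 met the criterion (smallest unadjusted p = 0.29, edgeR), with a median of 0.33. Over all tested miRNAs 48.8% were above 0, and 1.98% were called higher and 7.43% lower. let-7i-3p was at 26.7 ± 3.95 CPM in Control-EXO and 27.2 ± 0.64 CPM in RIPC-EXO, and let-7d-3p at 930 ± 368 and 783 ± 185 CPM (SD, n = 3 each), where their guide strands had higher means in RIPC-EXO. The highest log2 fold changes were 0.99 for miR-98-3p (0, 0.128 and 4.12 CPM in Control-EXO and 1.85, 4.31 and 2.64 CPM in RIPC-EXO) and 0.75 for let-7f-2-3p. miR-98-3p was above the value of some guide strands, and let-7f-2-3p above that of let-7e-5p only. let-7b-3p was at 0.49, let-7a-1-3p and let-7c-2-3p at 0.35 and let-7f-1-3p at 0.33. let-7e-3p, let-7c-1-3p and let-7g-3p lay between 0.0085 and 0.051, and let-7a-2-3p, with at most 0.427 CPM, was not tested. let-7a-1-3p and let-7c-2-3p have the same mature sequence, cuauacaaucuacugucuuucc, and held the same count in every library (382, 722 and 2294 in Control-EXO and 1168, 1932 and 1686 in RIPC-EXO), so the counting gave identical strands equal values.

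Guide strands encoded beside let-7a-2, let-7c-1 and let-7e lay mostly on the other side. Of miR-99a-5p, miR-99b-5p, miR-100-5p, miR-125a-5p and miR-125b-5p, 4 of 5 had a log2 fold change below 0, with a median of -0.75. Over all tested miRNAs 48.8% were above 0. miR-125b-5p met the criterion, at -1.09 (unadjusted p = 0.028, adjusted p = 0.46, edgeR), where 7.43% of the tested miRNAs were called lower in RIPC-EXO. miR-125a-5p was at -0.98, miR-99a-5p at -0.75, miR-99b-5p at -0.27 and miR-100-5p at 0.22, none of which met it. The groups were apart with RIPC-EXO lower for miR-99a-5p, miR-125a-5p and miR-125b-5p, as for 7.92% of all tested. They overlapped for miR-99b-5p and miR-100-5p. The strands read from opposite let-7 genes, miR-3596a, miR-3596b, miR-3596c and miR-3596d, and also miR-202-3p, had 0 counts in every library, where 3 counts correspond to 0.369 to 0.672 CPM. miR-202-5p had at most 4 counts in a library.

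The tested miRNAs outside the family whose log2 CPM followed the family total most closely over the 6 libraries were miR-3084a-5p and miR-3084b-5p (Pearson's r = 0.988, with identical counts), miR-155-5p (0.978), miR-466c-5p (0.978) and miR-374-3p (0.973). miR-155-5p, a strand known from activated immune cells, had 10.8, 6.02 and 27.3 CPM in Control-EXO and 27.1, 28.0 and 36.5 CPM in RIPC-EXO. miR-3084a-5p and miR-374-3p were below 10 CPM in every library. These values describe 6 shared libraries and are the highest of all tested miRNAs outside the family.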

How the data were processed

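Small RNA of plasma exosomes was sequenced on a HiSeq 2500 in 3 Control-EXO and 3 RIPC-EXO libraries. The authors deposited raw counts, the reads on each of 763 mature rat miRNAs, not normalized and not pooled. The submitters' processing notes name bcl2fastq, BWA and the build rn6, while trimming, the miRNA database, mismatches and multiple matches are not given in the sources used here. Groups and replicate numbers came from the sample titles.

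Low miRNAs were removed with filterByExpr of edgeR 4.0.16 in R 4.3.3 (minimum count 10, minimum total 15). The rest were scaled by TMM and tested with glmQLFit and glmQLFTest on group alone, with Benjamini-Hochberg adjustment over 404 miRNAs. Levels are TMM-normalized CPM. Log2 CPM used a prior count of 2. Sequences and GC content came from RefSeq (GRCr8). The GC offset removed each library's linear trend of log2 CPM on GC percent. Alternatives used DESeq2 1.42.0, limma 3.58.1, other scalings and filters, a block and each library left out.

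All 9 members and the related miRNAs were named, with the 5 other miRNAs most correlated with the family total. The members and lists were chosen with earlier results of these data known. The test was tried on simulated counts with the observed dispersion (0.285) and 400 miRNAs tested, where 56.1% of 139 changed 4-fold were recovered at an adjusted p under 0.05. All members differed by less than 4-fold, and no simulated library was set apart from its group. That share therefore cannot be carried over to the family. Figures used matplotlib 3.10.9.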

Additional observations from a re-analysis of the deposited data

How the results depend on the processing

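All 9 members kept a log2 fold change above 0 under every alternative, and their median stayed between 0.79 and 1.33 with all 6 libraries. The number of members meeting the criterion is given with the share of all tested miRNAs called higher in the same fit in parentheses, and was 0 (1.98%) in the fit reported. It was 3 (2.97%) with RLE size factors, 5 (4.46%) with library size only, 3 (2.72%) with upper quartile factors and 2 (2.48%) with normalization without the members. It was 4 (4.52%) without the filter, 1 (2.72%) with edgeR's exact test, 5 (6.68%) with limma-voom and 4 (4.03%) with DESeq2. It stayed 0 with at least 10 counts in every library (1.78%), a robust fit (1.98%) or the GC offset (1.38%). It was 4 (12.1%) with the GC offset and without Control-EXO replicate 3, a setting chosen after seeing the data. Adjusted p-values of members were 0.37 or more in each alternative with all 6 libraries (edgeR, DESeq2 or limma). Over fits lacking 1 library the number ranged from 0 to 7, with 7 (23.7%) without Control-EXO replicate 3, 3 (2.85%) without RIPC-EXO replicate 1, 1 (1.88%) without Control-EXO replicate 1 and 0 (0.714% to 1.64%) in the others. The median log2 fold change then ranged from 0.82 to 1.84 and the log2 ratio of the family total from 0.79 to 1.53, and the highest values came without Control-EXO replicate 3. By member, the lowest log2 fold change over these fits was 0.78 for let-7a-5p, 0.45 for let-7b-5p, 0.88 for let-7c-5p and 0.82 for let-7d-5p. It was 0.30 for let-7e-5p, 1.14 for let-7f-5p, 0.67 for let-7g-5p, 0.63 for let-7i-5p and 1.05 for miR-98-5p. The log2 ratio of the family total was 1.05 to 1.23 over the scalings.

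With the replicate number as a block 5 members met the criterion (6.19% of all tested higher), and 1 did with the block and the GC offset together (3.86%). Control and RIPC rats are different animals, and the deviations of libraries with the same number correlated at 0.33, -0.28 and 0.28. Only 2 of 6 libraries were closest to their own number, so the numbers were not taken as pairs. With a library left out, the difference in family share (RIPC-EXO minus Control-EXO) ranged from -0.73 to 4.75 percentage points for let-7g-5p and from -0.52 to 0.096 for let-7d-5p. It reversed without Control-EXO replicate 1 and replicate 2 respectively, and the cause was not tested. With a library left out, that difference ranged from -19.7 to -1.79 percentage points for let-7i-5p, from 4.24 to 10.8 for let-7f-5p from 0.595 to 4.90 for let-7a-5p, from -2.70 to -1.22 for let-7b-5p and from -0.17 to -0.017 for let-7e-5p. With 3 libraries a group, the intervals of the members are wide, and a member that did not pass is not shown to be equal in both groups.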
